A study of Mus musculus with 16 samples.

Results

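The genes for 7 high mobility group (HMG) proteins, *Hmgb1*, *Hmgb2*, *Hmgb3*, *Hmga1*, *Hmgn1*, *Hmgn2* and *Hmgn3*, were followed through RNA sequencing of astrocytes and endothelial cells (ECs) from mouse cerebral cortex at postnatal day 14. They were taken by symbol, as the deleted gene and the relatives whose levels could change in its absence, and were 7 of the 56980 genes in the count table. The mutants, *Hmgb1*ΔAstro, carried *Aldh1l1*-CreERT2, a tamoxifen-inducible Cre driven by an astroglial promoter, and *Hmgb1* flox/flox. Their littermates were *Hmgb1* flox/flox without Cre and are called wild type. Tamoxifen was given to all pups on the days after birth, so the floxed alleles and the drug were common to every group. Each of 4 mutant animals (2, 13, 18 and 21) and 4 wild-type animals (5, 9, 19 and 22) gave 1 astrocyte library and 1 EC library, for n = 4 in each of 4 groups. Astrocytes were caught with ACSA-2 beads and ECs with CD31 beads, after myelin and CD45-positive cells had been taken out.

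HMG proteins are small, abundant chromatin proteins that change the shape of DNA or nucleosomes without reading a long sequence. The HMGB proteins bend DNA through their HMG boxes, and HMGB1 also acts outside the cell as an alarm signal when it is released. HMGA proteins bind the minor groove of AT-rich DNA through AT hooks. HMGN proteins bind the nucleosome itself and counteract the compaction of chromatin by linker histones. HMGB2 and several other members are known for high levels in dividing cells.

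The genes lie on separate chromosomes. In GRCm39 *Hmgb1* (ENSMUSG00000066551.13) is at chr5:148983445-149121815 on the minus strand, *Hmgb2* (ENSMUSG00000054717.8) at chr8:57964687-57969276 on the plus strand and *Hmgb3* (ENSMUSG00000015217.12) at chrX:70591492-70605868 on the plus strand. *Hmga1* (ENSMUSG00000046711.17) is at chr17:27775449-27782648 on the plus strand, *Hmgn1* (ENSMUSG00000040681.17) at chr16:95921818-95929231 on the minus strand, *Hmgn2* (ENSMUSG00000003038.16) at chr4:133680805-133695961 on the minus strand and *Hmgn3* (ENSMUSG00000066456.15) at chr9:82989099-83028792 on the minus strand. All are protein coding. The HMG genes have many processed copies in the genome, which bears on how their reads are counted. Of the 50-base windows along the canonical transcript, 75.8% in *Hmga1* and 71.8% in *Hmgb1* had an exact copy elsewhere in GRCm39, against 38.9% in *Hmgb3*, 31.4% in *Hmgn1*, 30.9% in *Hmgn2*, 29.6% in *Hmgb2* and 0.154% in *Hmgn3*. How reads with several alignments were counted is not stated, so levels of *Hmgb1* and *Hmga1* may be understated and part of their reads may belong to copies. Copies annotated by name took few reads, 388 over 14 *Hmgb1* pseudogenes against 40588 for *Hmgb1* itself over the 16 libraries. Copied *Hmgb1* windows lay in 172 separate genomic bins, so the named copies may be only a part. If multiply aligned reads were dropped, exact copies would take few reads in any case, so these counts do not settle the question. Exons of *Hmgb1* also overlapped *Mm2pr* on the same strand.

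Promoter windows from RefSeq (build GRCm38.p6, 250 bases before to 50 after the annotated start) were held for 6 of the 7 genes. They are shown for the 3 HMGB genes, the deleted gene and its closest relatives, and for *Hmgn1*, whose level followed that of *Hmgb2* across libraries. Capitals mark CCAAT, the letters bound by NF-Y in many promoters of dividing cells, searched on both strands.
*Hmgb1*, chr5:149053008-149053307, minus strand: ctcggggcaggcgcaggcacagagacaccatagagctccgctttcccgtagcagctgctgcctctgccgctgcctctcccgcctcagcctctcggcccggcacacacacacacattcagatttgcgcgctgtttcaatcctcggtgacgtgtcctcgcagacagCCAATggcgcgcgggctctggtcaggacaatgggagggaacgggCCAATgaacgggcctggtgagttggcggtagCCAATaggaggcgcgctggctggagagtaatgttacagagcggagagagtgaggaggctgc
*Hmgb2*, chr8:57511593-57511892, plus strand: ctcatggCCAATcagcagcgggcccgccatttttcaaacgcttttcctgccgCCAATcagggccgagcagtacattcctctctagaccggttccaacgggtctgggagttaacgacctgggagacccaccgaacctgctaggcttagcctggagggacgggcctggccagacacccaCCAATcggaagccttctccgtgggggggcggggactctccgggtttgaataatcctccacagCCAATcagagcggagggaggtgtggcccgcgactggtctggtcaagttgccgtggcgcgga
*Hmgb3*, chrX:71555667-71555966, plus strand: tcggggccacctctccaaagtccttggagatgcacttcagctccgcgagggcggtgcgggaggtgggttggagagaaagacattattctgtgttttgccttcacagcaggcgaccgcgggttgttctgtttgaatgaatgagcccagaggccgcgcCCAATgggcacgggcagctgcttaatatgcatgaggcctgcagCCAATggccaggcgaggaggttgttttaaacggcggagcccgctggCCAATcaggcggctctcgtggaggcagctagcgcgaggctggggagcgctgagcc
*Hmgn1*, chr16:96127676-96127975, minus strand: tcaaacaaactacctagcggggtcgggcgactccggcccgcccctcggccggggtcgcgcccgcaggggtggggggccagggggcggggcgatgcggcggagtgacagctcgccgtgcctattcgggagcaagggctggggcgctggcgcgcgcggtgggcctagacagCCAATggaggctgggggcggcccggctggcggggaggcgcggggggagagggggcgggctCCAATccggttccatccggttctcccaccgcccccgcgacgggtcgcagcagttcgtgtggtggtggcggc
The HMGB windows held 3, 4 and 3 matches, which began 86, 42 and 11 bases before the start in *Hmgb1*, 243, 198, 73 and 11 in *Hmgb2*, and 94, 51 and 5 in *Hmgb3*. *Hmgn1* held 2 matches, at 81 and 21 bases before the start, and *Hmgn2* 1. The second annotated *Hmgb1* window and both *Hmga1* windows held none. Of 32851 windows of this length, 37.4% held CCAAT at least once and 3.37% held it 3 or more times. The E2F letters TTTCGCGC or TTTGGCGC were in none of the 8 member windows and in 0.813% of all windows. GGGCGG was in 7 of the 8 windows, against 35.7% of all, TTTGAA in 2, against 17.9%, and TATAAA in none, against 13.6%. These matches describe letters, and binding was not measured.

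Libraries held 16076010 to 23132312 counted reads, and levels are given as CPM, the reads of a gene scaled to the library total. The smallest count of any member in any library was 172 reads, of *Hmga1*. The libraries matched the sorted cell types of their labels, with summed astrocyte markers (12 genes) of 38812 to 50594 CPM in astrocyte libraries and 1037 to 1716 CPM in EC libraries, and summed EC markers (12 genes) of 108 to 182 against 15544 to 18208 CPM. No marker in either list was at 0 in all libraries of a group. Summed ependyma and choroid markers stood at 5139 CPM in the EC library and 1591 CPM in the astrocyte library of wild-type animal 5. The other libraries held at most 1126 CPM of them in ECs and 296 CPM in astrocytes. Oligodendrocyte markers stood at 2935 CPM in the astrocyte library of wild-type animal 9, against at most 1149.8 CPM in the other astrocyte libraries, and ran from 435 to 3488 CPM in ECs, with the highest values in mutant animal 18 and wild-type animal 9. Pericyte and smooth muscle markers ran from 2598 to 4722 CPM in mutant ECs and from 2393 to 3511 CPM in wild-type ECs, with overlap. Their part in the EC levels below was not tested. The animals fell into 2 sets by sex-linked transcripts, wild types 5 and 9 and mutants 2 and 13 with Y-linked transcripts, and wild types 19 and 22 and mutants 18 and 21 without. Values within each set are given beside the pooled ones for the genes that moved, in this order. Levels carry SDs over the 4 animals of a group, log2 fold changes carry standard errors (SE), and adjusted p-values are from the quasi-likelihood test of edgeR with Benjamini-Hochberg adjustment over all genes tested.

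*Hmgb1*, the deleted gene, was at 32.4, 39, 42 and 50.6 CPM in mutant astrocytes of animals 2, 13, 18 and 21, and at 88.1, 89.2, 127 and 118 CPM in wild-type astrocytes of animals 5, 9, 19 and 22. The 4 mutant libraries lay below the 4 wild-type libraries, with a mean of 41 ± 7.54 against 106 ± 20 CPM, or 38.8% of the wild-type level. On the log2 scale *Hmgb1* changed by -1.36 (95% confidence interval -1.70 to -1.01; SE 0.15), with -1.29 and -1.42 within the sets. Its edgeR adjusted p was 0.0605 and ran from 1.39e-12 to 0.345 over 17 alternatives, 6 of which passed. Whether the remaining reads came from astrocytes that kept the gene, from a shortened transcript or from other cells was not tested. In bulk libraries, fewer cells of a type and less RNA per cell cannot be told apart.

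None of the 6 relatives passed the threshold in mutant against wild-type astrocytes, where 0.00631% of 15850 genes (1 gene) were called, so the background was near 0 as well. At an unadjusted p under 0.05, 1180 genes stood out, and DESeq2 called 116. All 6 relatives had a positive log2 fold change, with a median of 0.14 against 0.0076 over all genes tested, but the intervals of 5 of them included 0.

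*Hmgb2*, the closest relative of *Hmgb1* by structure and a protein of dividing cells, was at 30.7, 54.5, 59.9 and 78.9 CPM in mutant astrocytes of animals 2, 13, 18 and 21. Wild-type astrocytes of animals 5, 9, 19 and 22 held 31.2, 39.9, 67.1 and 64.1 CPM of *Hmgb2*. The groups overlapped over nearly their whole range, with the lowest library of each at almost the same level. The log2 fold change of *Hmgb2* was 0.15 (SE 0.30, interval -0.52 to 0.82; edgeR adjusted p = 0.948), so that a rise to 1.77-fold lay within the interval. *Hmgb3*, an X-linked HMGB gene known from blood stem cells, was at 27, 35.5, 48 and 44.9 CPM in the same mutants and at 20.7, 22.6, 41 and 36.5 CPM in the same wild-type animals. The pooled groups overlapped, but within each set both mutant libraries lay above both wild-type libraries. The log2 fold change of *Hmgb3* was 0.37 (SE 0.24, edgeR adjusted p = 0.772), with 0.55 (SE 0.14, adjusted p = 0.334) and 0.24 (SE 0.09, adjusted p = 0.475) within the sets. With *Xist* as a covariate the fold change of *Hmgb3* was 0.44 (SE 0.12, interval 0.18 to 0.71, adjusted p = 0.0975). The intervals within the sets, 0.22 to 0.88 and 0.03 to 0.46, also lay above 0, so that *Hmgb3* missed the threshold only after adjustment over all genes in these 3 fits.

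**Figure D1:**
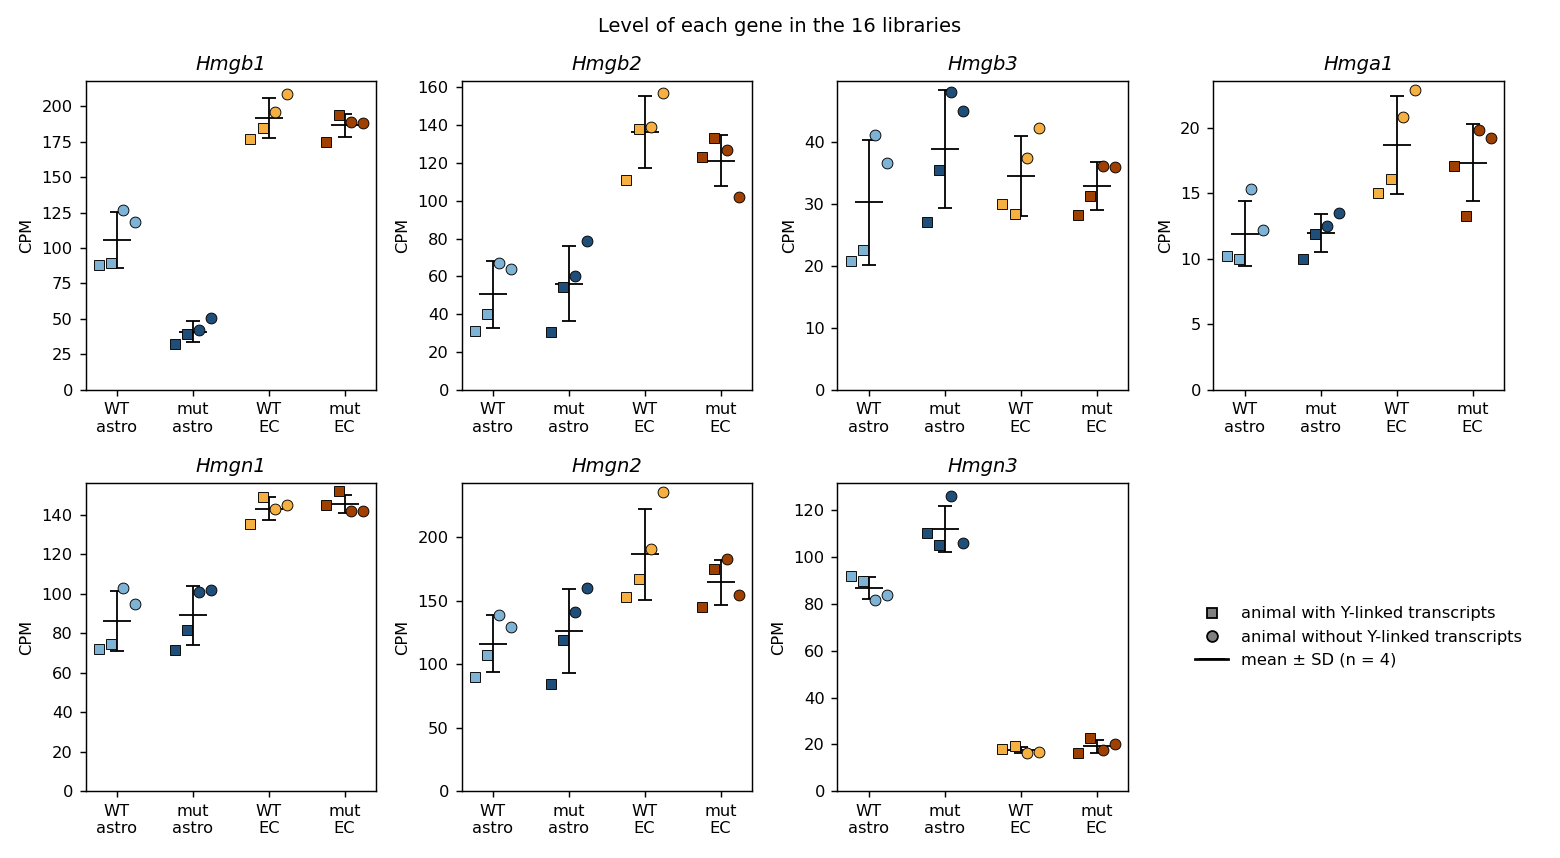
CPM of each of the 7 genes in wild-type (WT) and mutant (mut) astrocytes (astro) and ECs, 1 point per library. Squares are animals with Y-linked transcripts, circles animals without, and horizontal lines with bars show mean ± SD (n = 4). Mutant astrocytes lie apart from wild-type astrocytes in *Hmgb1* (32.4 to 50.6 against 88.1 to 127 CPM) and *Hmgn3* (105 to 126 against 81.7 to 91.6 CPM).

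*Hmgn3*, an HMGN gene with high levels in brain and eye, was the relative whose astrocyte groups did not overlap. Mutant animals 2, 13, 18 and 21 held 110.2, 105, 126 and 106 CPM of *Hmgn3*, and wild-type animals 5, 9, 19 and 22 held 91.6, 89.6, 81.7 and 83.7 CPM. Every mutant library was above every wild-type library, and *Hmgn3* was 1 of 7 members in that position, against 2.19% of all genes tested with the mutants higher. *Hmgb1* was 1 of 7 with the mutants lower, against 2.78% of all genes. The means were 112 ± 9.87 and 86.7 ± 4.69 CPM, a log2 fold change of 0.38 (SE 0.08, interval 0.20 to 0.55) with 0.27 and 0.47 within the sets. The edgeR p of *Hmgn3* was 8.34e-04 and its adjusted p 0.283, which missed the threshold. DESeq2 gave an adjusted p of 0.00526, at which 2 of 7 members and 0.732% of all genes were called, and edgeR with *Xist*, the RNA of the inactive X chromosome, as a covariate gave 0.0368, again with 2 of 7 members and 1.21% of all genes. In both, the members called were *Hmgb1* and *Hmgn3*. Over the 17 alternatives its adjusted p ran from 0.00526 to 0.575, and the fold change from 0.27 to 0.47. Summed astrocyte markers were 39625 to 50594 CPM in mutant and 38812 to 48894 CPM in wild-type astrocytes, and their part in this difference was not tested.

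The other members overlapped between the genotypes. *Hmga1*, the AT-hook gene, was the member with the lowest CPM, not corrected for length, with 9.97 to 13.5 CPM in mutant and 9.96 to 15.3 CPM in wild-type astrocytes (log2 fold change 0.02, SE 0.15, edgeR adjusted p = 0.990). *Hmgn1*, which competes with linker histone on nucleosomes, ranged from 71.4 to 102 CPM with and from 72 to 103 CPM without the deletion (0.06, SE 0.14, edgeR adjusted p = 0.960). *Hmgn2*, its near relative, ranged from 84.1 to 160.1 CPM in mutant and from 89.7 to 139 CPM in wild-type libraries (0.12, SE 0.19, edgeR adjusted p = 0.926). The upper bounds of the intervals were 0.36, 0.37 and 0.55 on the log2 scale, so larger rises lay outside them while small ones could not be told from none.

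**Figure D2:**
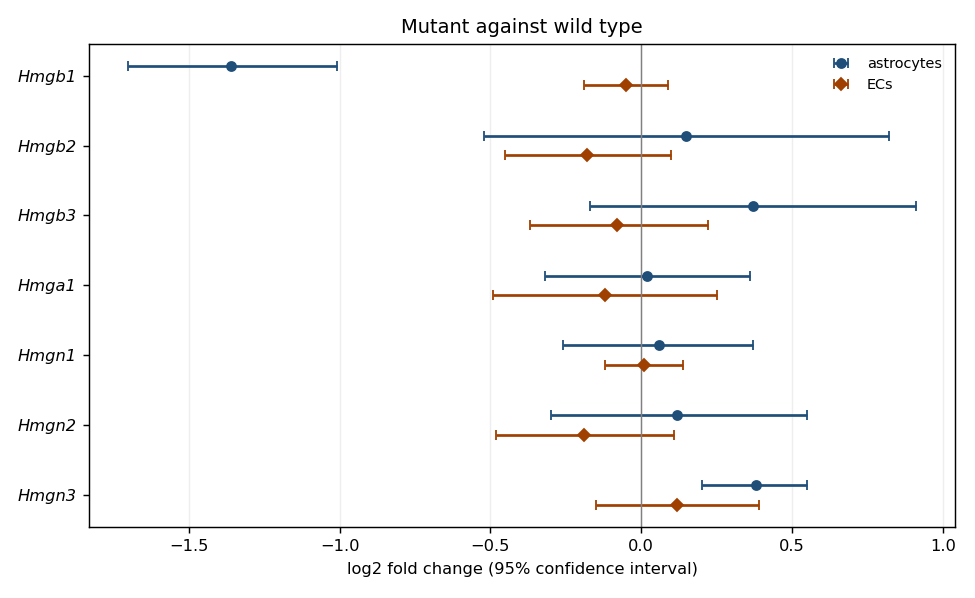
Log2 fold change of mutant against wild type for each gene in astrocytes (circles) and ECs (diamonds), with 95% confidence intervals from the edgeR fit. In astrocytes the intervals of *Hmgb1* (-1.70 to -1.01) and *Hmgn3* (0.20 to 0.55) lie off 0, and in ECs all 7 intervals include 0.

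The HMGB genes were next set against each other per length, as CPM per kilobase of merged exons, since reads rise with transcript length. In wild-type astrocytes *Hmgb1* stood at 15.7 ± 2.97, *Hmgb2* at 12.6 ± 4.43 and *Hmgb3* at 6.59 ± 2.2 CPM per kb. *Hmgb1* was the highest and *Hmgb3* the lowest of the 3 in each of the 4 libraries, while the ranges of *Hmgb1* (13 to 18.8) and *Hmgb2* (7.78 to 16.7) overlapped. Per kb of the canonical transcript *Hmgb1* and *Hmgb2* were at 36.8 ± 6.99 and 16.2 ± 5.68. A further scale took as length the number of 50-base windows of that transcript without a copy, here called uncopied bases. It divides all reads of the gene by that number, and so assumes that reads from copied windows went uncounted, which is not known. Per kb of uncopied bases *Hmgb1* and *Hmgb2* were at 133 ± 25.2 and 23.3 ± 8.19, clear of each other on this scale and the canonical one. In mutant astrocytes the order on merged exons was *Hmgb2* at 14 ± 4.95, *Hmgb3* at 8.48 ± 2.08 and *Hmgb1* at 6.08 ± 1.12 CPM per kb. That order turned with the length used. Per kb of the canonical transcript it was *Hmgb2* (17.9), *Hmgb1* (14.3) and *Hmgb3* (11.6). Per kb of uncopied bases, with the assumption above, *Hmgb1* (51.7) stayed above *Hmgb2* (25.8) and *Hmgb3* (19.3). *Hmgb1* made up 42.2% to 51.5% of the summed HMGB level in wild-type astrocytes and 19.7% to 26.2% in mutant astrocytes per kb of merged exons. It made up 56.7% to 65.5% and 30.4% to 38.7% per kb of the canonical transcript, and 75.7% to 81.8% and 50.7% to 59.7% per kb of uncopied bases, so that on the last scale it remained the larger part in mutants. On merged exons the share of *Hmgb2* was 30.7% to 38.6% in wild types and 41.8% to 53.2% in mutants, and that of *Hmgb3* 17.5% to 20.1% and 26.5% to 33.1%. These shares must move when *Hmgb1* falls and are given as a description.

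The summed HMGB level was 18.4, 27.1, 31.6 and 37 CPM per kb in mutant astrocytes of animals 2, 13, 18 and 21, and 25.3, 28.1, 44.5 and 41.5 CPM per kb in wild types 5, 9, 19 and 22. The ranges overlapped, with means of 28.5 ± 7.88 and 34.9 ± 9.54, and the mutant mean was 81.7% of the wild-type mean. It was 70.7% per kb of the canonical transcript, again with overlap of the pooled groups (29.2 to 56.3 against 46.9 to 78.1). On that scale both mutants lay below both wild types within each set. With Y-linked transcripts they were at 29.2 and 41.7 against 46.9 and 50.6, and without at 48.2 and 56.3 against 78.1 and 72.7. On merged exons this held only in the set without Y-linked transcripts. Per kb of uncopied bases the mutant mean was 56.7% of the wild-type mean, without overlap (68.5 to 123 against 136 to 212). The canonical and uncopied lengths were tried after the data were seen. On each of the 3 scales the mutant mean was below the wild-type mean.

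**Figure D3:**
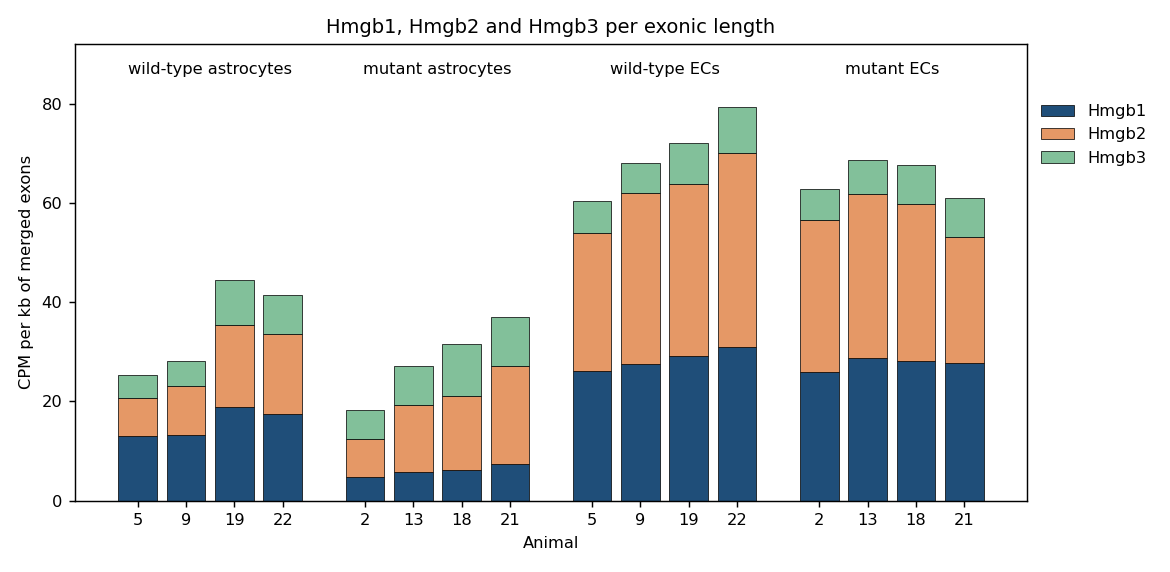
*Hmgb1*, *Hmgb2* and *Hmgb3* stacked as CPM per kb of merged exons, 1 bar per library, with the animal number under each bar. The *Hmgb1* segment is 4.8 to 7.5 in mutant astrocytes and 13 to 18.8 in wild-type astrocytes, and the whole bars are higher in ECs (60.5 to 79.2) than in astrocytes (18.4 to 44.5).

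In ECs, whose *Hmgb1* the astroglial Cre should leave in place, no member passed in mutant against wild type, as did 0% of 15750 genes. At an unadjusted p under 0.05, 826 genes but none of the 7 members stood out, and DESeq2 called 6 genes. *Hmgb1* was at 175, 194, 189 and 188 CPM in mutant ECs of animals 2, 13, 18 and 21 and at 177, 185, 196 and 209 CPM in wild-type ECs of animals 5, 9, 19 and 22. The groups overlapped, though wild-type animals 19 and 22 lay above every mutant library, with a log2 fold change of -0.05 (SE 0.06, interval -0.19 to 0.09; edgeR adjusted p = 0.961). *Hmgb2* was at 102 to 133 CPM in mutant and 111 to 157 CPM in wild-type ECs (log2 fold change -0.18, SE 0.12), and *Hmgb3* at 28.2 to 36.1 and 28.3 to 42.2 CPM (-0.08, SE 0.13). *Hmgn2* was at 145 to 183 and 153 to 235 CPM (-0.19, SE 0.13), *Hmgn1* at 142 to 152 and 135 to 149 CPM (0.01, SE 0.06) and *Hmga1* at 13.3 to 19.8 and 15 to 22.9 CPM (-0.12, SE 0.16). *Hmgn3*, apart in astrocytes, overlapped in ECs with 16.4 to 22.6 and 16.5 to 19.2 CPM (0.12, SE 0.12, edgeR adjusted p = 0.957). No member's pooled EC groups were free of overlap, against 1.82% of all genes with the mutants higher and 1.63% with the mutants lower. In ECs without Y-linked transcripts the intervals of *Hmgb2* (-0.38, -0.70 to -0.07) and *Hmgn2* (-0.35, -0.68 to -0.02) lay below 0. Both had an edgeR adjusted p of 0.717, and the intervals of the other members included 0. In the set with Y-linked transcripts *Hmgb2* was at 0.04 and *Hmgn2* at 0.0014.

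The genotype effects of both cell types were compared over the 16 libraries. *Hmgb1* was the 1 member of 7 whose effect differed between astrocytes and ECs, against 0.0114% of 17493 genes (2 genes). The difference was -1.32 (SE 0.17, interval -1.68 to -0.96; edgeR adjusted p = 0.0100), and with the animal as a block it was -1.32 (SE 0.15, adjusted p = 0.0286). Within the sets it was -1.32 (adjusted p = 0.216) and -1.29 (adjusted p = 0.0455). The call was lost without animal 2 (0.0653), 13 (0.106), 18 (0.130), 19 (0.0834) or 22 (0.0715) and held without animal 5, 9 or 21, while the fold stayed between -1.44 and -1.23. For *Hmgn3* the difference was 0.25 (SE 0.14, interval -0.05 to 0.56; adjusted p = 1), so its separation in astrocytes was not shown to be absent from ECs. For *Hmgb3* it was 0.44 (SE 0.29) and for *Hmgb2* 0.31 (SE 0.35), each at an adjusted p of 1. With the animal as a block *Hmgb3* was at 0.45 (SE 0.16, interval 0.11 to 0.80). Its intervals within the sets, 0.08 to 0.95 and 0.12 to 0.72, also lay above 0, but it passed in none of these fits after adjustment.

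Between the cell types, more members passed than between the genotypes. In wild types, 5 of 7 members were higher in ECs than in astrocytes, against 38.3% of 16336 genes, and 1 of 7 was lower, against 38.2%. *Hmgb2* showed the greatest excess, with 111, 138, 139 and 157 CPM in ECs of animals 5, 9, 19 and 22 against 31.2, 39.9, 67.1 and 64.1 CPM in their astrocytes. The excess of *Hmgb2* was 1.37 on the log2 scale (SE 0.23, edgeR adjusted p = 4.63e-04), or 2.59-fold, with 1.77 and 1.11 within the sets. *Hmgb1* followed at 192 ± 13.7 against 106 ± 20 CPM (0.80, SE 0.13, edgeR adjusted p = 2.66e-04), then *Hmgn1* at 143 ± 5.8 against 86 ± 15.2 CPM (0.68, SE 0.12, adjusted p = 4.96e-04) and *Hmgn2* at 186 ± 35.8 against 116 ± 22.1 CPM (0.63, SE 0.16, adjusted p = 0.00582). The EC libraries of these 4 genes lay above all astrocyte libraries. *Hmga1* stood at 18.7 ± 3.78 against 11.9 ± 2.46 CPM (0.60, SE 0.18, adjusted p = 0.0132), with overlap, and its call was lost without animal 22 (adjusted p = 0.0613). These fits left out the pairing by animal. With the animal as a block *Hmga1* was at 0.60 (SE 0.12, edgeR adjusted p = 0.00277) over all 4 wild-type animals.

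*Hmgn3* went the other way. Wild-type ECs held 17.9, 19.2, 16.5 and 16.8 CPM of *Hmgn3* against 91.6, 89.6, 81.7 and 83.7 CPM in astrocytes of the same animals. The groups were far apart, at 5.12-fold lower in ECs (log2 fold change -2.36, SE 0.09, edgeR adjusted p = 1.79e-08). *Hmgb3* was at 34.5 ± 6.5 CPM in ECs and 30.2 ± 10.1 CPM in astrocytes, which gave 0.13 on the log2 scale (SE 0.23, adjusted p = 0.611). Within the sets it was 0.38 (adjusted p = 0.0266) and -0.02 (adjusted p = 0.872), so that the set with Y-linked transcripts passed and the other did not. That difference between the sets was not tested.

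In mutants, 4 of 7 members were higher in ECs, against 38.8% of 16508 genes, and 1 of 7 lower, against 39.1%. *Hmgb1* stood at 187 ± 8.17 CPM in ECs and 41 ± 7.54 CPM in astrocytes, 4.32-fold higher (log2 fold change 2.11, SE 0.11, edgeR adjusted p = 5.74e-08), in place of the 1.74-fold of the wild types. *Hmgn3* was 6.14-fold lower in ECs (-2.62, SE 0.12, adjusted p = 1.97e-08). *Hmgb2* (1.05, SE 0.22, adjusted p = 0.00155), *Hmgn1* (0.63, SE 0.10, adjusted p = 2.57e-04) and *Hmga1* (0.46, SE 0.13, adjusted p = 0.0102) were higher in ECs, and the call of *Hmga1* was lost without animal 2 (0.0522) or 18 (0.0519). *Hmgn2* (0.31, SE 0.16, adjusted p = 0.0993) and *Hmgb3* (-0.31, SE 0.15, adjusted p = 0.0812) did not pass. With the animal as a block both passed, *Hmgn2* at 0.34 (adjusted p = 0.0482) and *Hmgb3* at -0.29 (adjusted p = 0.0218), so that all 7 were called, against 77.5% of all genes in that fit. Both passed with *Xist* as a covariate as well (adjusted p = 0.048 and 0.0231), where 13080 of 16508 genes were called. Within the sets *Hmgn2* was at 0.58 (adjusted p = 0.0137) and 0.10 (adjusted p = 0.441), and *Hmgb3* at -0.15 (adjusted p = 0.408) and -0.43 (adjusted p = 0.00258), differences between the sets that were not tested. *Hmgb3* also passed without animal 2 (adjusted p = 0.0195) and *Hmgn2* without animal 21 (adjusted p = 0.0353).

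**Figure D4:**
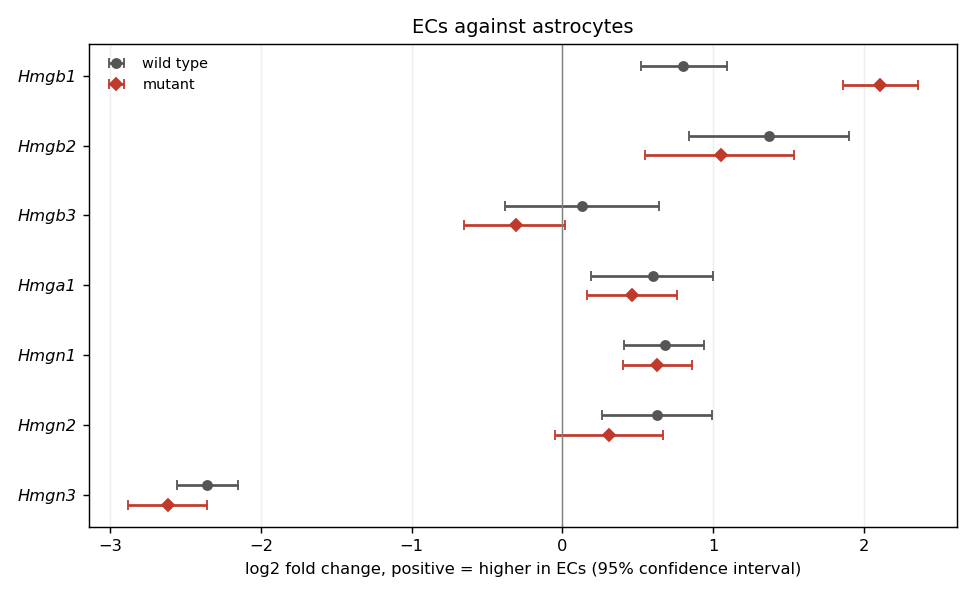
Log2 fold change of ECs against astrocytes in wild types (circles) and mutants (diamonds), with 95% confidence intervals from the edgeR fit. Values right of 0 are higher in ECs. *Hmgb1* moves from 0.80 in wild types to 2.11 in mutants, and *Hmgn3* lies at -2.36 and -2.62.

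Astrocyte libraries also differed between the sets of animals. In a fit of genotype and set, chosen after the data were seen, 5 of 7 members differed between the sets in astrocytes, against 32.7% of all genes, each counted in either direction. All 5 were higher in animals without Y-linked transcripts, and the share of all genes higher there is not given. These were *Hmgb2* (log2 difference 0.76, SE 0.16, edgeR adjusted p = 0.00579), *Hmgb3* (0.66, SE 0.10, adjusted p = 0.00116), *Hmgn2* (0.47, SE 0.10, adjusted p = 0.00585), *Hmgn1* (0.39, SE 0.05, adjusted p = 7.89e-04) and *Hmgb1* (0.39, SE 0.07, adjusted p = 0.00332). *Hmga1* (0.31, SE 0.11, adjusted p = 0.0556) and *Hmgn3* (-0.04, SE 0.07, adjusted p = 0.658) did not pass. In ECs 1 of 7 members passed, against 3.82% of all genes. It was the X-linked *Hmgb3*, at 28.2 to 31.3 CPM in the 4 animals with Y-linked transcripts and 35.9 to 42.2 CPM in the 4 without (0.33, SE 0.07, adjusted p = 0.0450). Sex and any other difference between the sets cannot be told apart in these animals.

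Transcripts of dividing cells moved with the same split. Summed cell cycle transcripts (29 genes, none of them a member) were 335 to 579 CPM in the 4 astrocyte libraries with Y-linked transcripts and 699 to 958 CPM in the 4 without, and 1156 to 1905 CPM in ECs. *Mki67*, a marker of cycling cells, was at 20.7 to 48.6 CPM and 56.2 to 82.2 CPM in those astrocyte libraries, and *Top2a*, the topoisomerase of chromosome condensation, at 23.2 to 51.9 and 65.9 to 99.9 CPM. Summed astrocyte markers went the other way without overlap, at 45635 to 50594 and 38812 to 41408 CPM, as did EC markers, at 146 to 182 and 108 to 145 CPM, and pericyte and smooth muscle markers, at 999 to 1584 and 538 to 789.9 CPM, and erythroid markers were at 472 to 1128 and 986 to 1486 CPM. Between genotypes the cell cycle sums overlapped, at 335 to 958 CPM in mutant and 427 to 907 CPM in wild-type astrocytes. The part of these markers in the differences between the sets was not tested.

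Because the sets separate the astrocyte libraries in the cell cycle sum, the members were related to it as deviations from the mean of each set, on the log2 scale over 8 libraries, with exact permutation within the sets (576 arrangements, two-sided) and adjustment over 14 relations. This was chosen after the data were seen. In astrocytes *Hmgb2* gave Pearson r = 0.87 and Spearman rho = 0.90 (exact p = 0.0243 for each, adjusted 0.219 and 0.17), and r was 0.97 without the 2 libraries farthest from the median. Of the 4 libraries with Y-linked transcripts, those of animals 2, 5, 9 and 13 held 335, 427, 489 and 579 CPM of cell cycle transcripts and 30.7, 31.2, 39.9 and 54.5 CPM of *Hmgb2*, the same order. Without Y-linked transcripts the order was not the same. Animals 18, 19, 22 and 21 held 699, 863, 907 and 958 CPM of cell cycle transcripts and 59.9, 67.1, 64.1 and 78.9 CPM of *Hmgb2*. *Hmgn2* gave r = 0.78 and rho = 0.60 (adjusted exact p = 0.219 and 0.59; r = 0.87 without the 2 farthest libraries), *Hmgn1* r = 0.61 and rho = 0.50 (adjusted exact p = 0.383 and 0.59; r = 0.76) and *Hmga1* r = 0.51 and rho = 0.20 (adjusted exact p = 0.383 and 0.855; r = 0.38). For *Hmgb1*, *Hmgb3* and *Hmgn3* r was 0.30, 0.19 and -0.40 (adjusted exact p = 0.514, 0.757 and 0.411). Their r moved to -0.78, 0.90 and 0.66 without the 2 farthest libraries, so that this trimmed value was unstable. In ECs *Hmga1* gave r = 0.74 and rho = 0.90 (adjusted exact p = 0.219 and 0.17; r = 0.67) and *Hmgb2* r = 0.79 and rho = 0.70 (adjusted exact p = 0.219 and 0.519), with r at 0.08 without the 2 farthest libraries. There r was 0.69 for *Hmgn2*, 0.53 for *Hmgb3*, 0.44 for *Hmgb1*, 0.22 for *Hmgn1* and -0.66 for *Hmgn3*. None of the 14 relations passed after adjustment, and whether dividing cells carried the reads of these members was not tested.

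**Figure D5:**
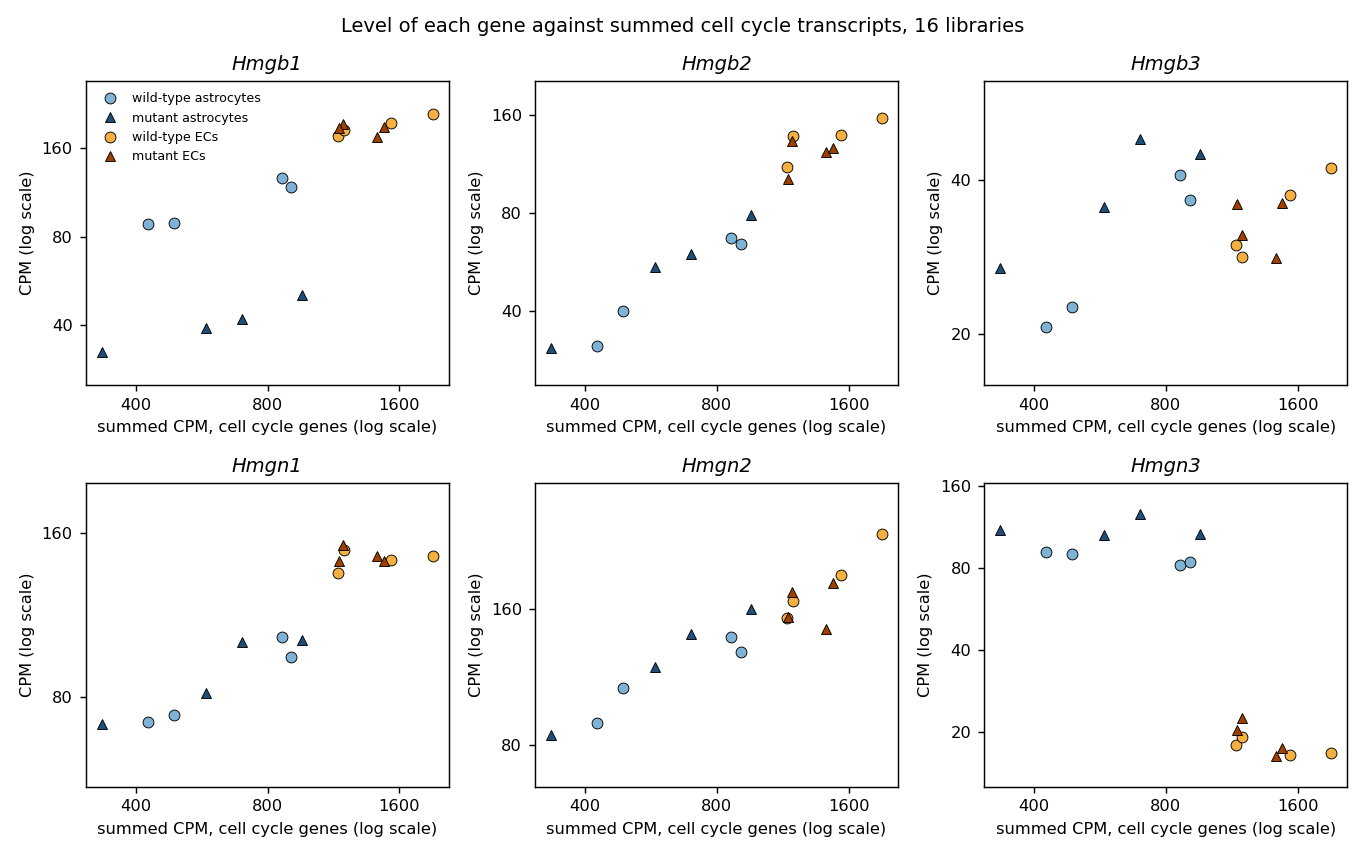
Level of 6 members (CPM, log axis) against summed CPM of 29 cell cycle genes (log axis) in the 16 libraries, with circles for wild types and triangles for mutants. Over the astrocyte libraries *Hmgb2*, *Hmgn1* and *Hmgn2* are higher in the libraries with the higher cell cycle sums, which are also those of the animals without Y-linked transcripts, while the mutant *Hmgb1* points lie in a row under the wild-type ones and *Hmgn3* stays level.

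The genes whose pattern was most like each HMGB gene were found by Pearson r of log2(CPM + 1) over the 16 libraries, among 11756 genes of at least 5 CPM on average. Since the libraries divide into 2 cell types, r mainly reflects that division. *Hmgb2* was most like *Selenoh*, *Ttk* and *Cdc20*, all at r = 0.99, of which *Ttk* and *Cdc20* encode mitotic checkpoint and exit proteins, and *Hmgn1* stood 20th at r = 0.98. *Hmgb1* was most like *Trim68* (r = 0.95), *Cers4* (0.94) and *Lmf2* (0.93), above *Hmgb2* at 0.78. *Hmgb3* was most like *Nit2*, *Psmg4* (both r = 0.90) and *Snrpd1* (0.88), and stood at 0.40 with *Hmgb2* and -0.05 with *Hmgb1*.

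Wider lists of related chromatin genes were read beside the members. None of 38 other HMG box and HMG genes tested, of 5 linker histone genes or of 39 chromatin architecture genes passed in mutant against wild-type astrocytes, with median log2 fold changes of -0.07, 0.13 and 0.08. The smallest p among HMG box genes was that of *Cic*, the HMG box repressor Capicua, with a mutant mean of 79 ± 5.25 CPM and a wild-type mean of 96.4 ± 9.03 CPM without overlap (log2 fold change -0.28, SE 0.08, edgeR adjusted p = 0.505), followed by *Tox2* (-0.23) and *Sox8* (-0.18). Among linker histone genes these were *H1f2* (0.35), *Hp1bp3* (0.13) and *H1f0* (-0.16), and among architecture genes *Satb1* (-0.17), *Stag1* (0.15) and *Cbx3* (0.17), each at an adjusted p above that of *Cic*. Groups without overlap and with mutants lower were found for 3 of 38, 0 of 5 and 1 of 39 genes, *Cic*, *Tox2* and *Satb1* among them. The share was 2.78% of all genes. With mutants higher the counts were 0, 1 (*Hp1bp3*) and 0, against 2.19% of all genes. With *Xist* as a covariate 1 gene of these lists of 38, 5 and 39 passed, the X-linked *Hmgn5*, against 1.21% of all genes in that fit. In ECs none passed either, of 39, 6 and 39 tested, and the smallest p in each list was that of *Hbp1* (0.20), *H1f10* (-0.34) and *Cbx3* (0.17).

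Between wild-type cell types, 21 of 40 other HMG box and HMG genes were higher in ECs and 14 lower, against 38.3% and 38.2% of all genes. The largest changes were those of *Sox17* and *Sox18*, transcription factors of endothelium, at 293 ± 25 and 229 ± 57.4 CPM in ECs against at most 0.266 and 0.463 CPM in any astrocyte library, and of the neural *Sox1*, at 1.7 ± 0.176 against 68.5 ± 3.09 CPM. Of 39 chromatin architecture genes 31 were higher in ECs and 2 lower, against the same 38.3% and 38.2%, led by *Ncaph*, a condensin subunit (94.2 ± 11.6 against 10.8 ± 4.09 CPM), *Lbr*, the lamin B receptor (109 ± 19.8 against 21.8 ± 0.8 CPM), and *Satb1*, a matrix-binding protein (9.43 ± 1.78 against 46.5 ± 0.689 CPM). Of 6 linker histone genes 1 was higher, *H1f0*, the replacement form found in cells that have left the cycle (248 ± 73.3 against 124 ± 32.4 CPM, edgeR adjusted p = 0.00410). The median log2 fold changes of these lists were 0.34, 0.79 and 0.27, against 0.63 for the 7 members and 0.019 over all genes tested.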

How the data were processed

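Bulk RNA was sequenced from 16 libraries, and the deposited values are raw read counts per gene, made by the authors with FASTX-toolkit trimming, alignment to GRCm39 and counting with STAR 2.7.9a; the notes also name DESeq2. Annotation release, strand setting and treatment of multiply aligned reads are not given in the sources used here. The 7 members and the gene lists were chosen with earlier results of these data known. Of 56980 identifiers 98.7% matched GENCODE annotation of GRCm39. Groups came from the sample labels. Counts were fitted with edgeR 4.0.16 (R 4.3.3; TMM, filterByExpr, quasi-likelihood F-test) in 5 comparisons, p-values were adjusted by Benjamini-Hochberg over every gene fitted, and calls needed an adjusted p under 0.05; the code was checked on simulated data. Alternatives were DESeq2 1.42.0, RLE factors, no filter, a minimum of 1 CPM in 4 libraries, voom with quality weights (limma 3.58.1), all 16 libraries in 1 fit, log2 *Xist* CPM as a covariate, each set of animals alone, the animal as a block, and each animal left out. The animal number in the labels pairs the 2 cell types, and same-animal deviations from group means correlated at 0.173 to 0.46. The 24 within-group pairs of libraries differed beyond sampling noise (chi-square 8.19 to 57.7 per gene). All members were named, and from each list up to 3 genes by smallest p or, between cell types, by size of change.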

Additional observations from a re-analysis of the deposited data

Results flagged for a closer look

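*Hmgb1* had a genotype effect that differed between the cell types by a test of the difference itself, at -1.32 on the log2 scale for astrocytes minus ECs (edgeR adjusted p = 0.0100 over 17493 genes). As the gene deleted by an astroglial Cre, it was meant by design to differ in this way, so the test checks the deletion. No library stood far from the other 3 of its group in any of the 28 combinations of member and group that were looked at.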

How the results depend on the processing

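Of 553 member values under the alternatives, 501 kept their direction and side of the threshold, 17 gained and 10 lost a call and 25 turned sign, all of the last small and uncalled. In mutant against wild-type astrocytes the members called went from 0 to 2 with DESeq2 and with *Xist* as a covariate (*Hmgb1* and *Hmgn3*), and to 1 (*Hmgb1*) without a filter on low counts, with limma-voom, with all 16 libraries in 1 fit and in animals without Y-linked transcripts. All genes called there were 1 in the main fit, 116 with DESeq2 and 192 with *Xist*. The 1 call of the difference between cell types, *Hmgb1*, became 0 in animals with Y-linked transcripts and ranged from 0 to 1 when single animals were left out. The replicate block kept that call and raised the members called between mutant cell types from 5 to 7, as did *Xist* as a covariate. All genes called between mutant cell types were 77.5% with the block and 13080 of 16508 with *Xist*. Within 1 set, signs turned in astrocytes for *Hmga1* (-0.09, without Y-linked transcripts), in ECs for *Hmgb1* (0.03), *Hmgb2* (0.04), *Hmgb3* (0.03) and *Hmgn2* (0.0014, all with) and *Hmgn1* (-0.04, without), and between wild-type cell types for *Hmgb3* (-0.02, without). Leaving out single animals turned signs in astrocytes for *Hmgb2* (-0.05 to 0.34), *Hmga1* (-0.06 to 0.15), *Hmgn1* (-0.02 to 0.14) and *H1f0* (-0.27 to 0.01), in ECs for *Hmgb3* (-0.15 to 0.03) and *Hmgn1* (-0.02 to 0.04), and in the difference for *Hmgn1* (-0.06 to 0.13). The causes were not tested. With 4 animals per group, *Hmgb3* did not pass in astrocytes after adjustment over all genes under any alternative.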

Other observations

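*Hmgn5*, an X-linked HMGN gene outside the 7 members, was looked at after its values were seen. It was at 26.7, 29.9, 43.7 and 39.3 CPM in mutant astrocytes of animals 2, 13, 18 and 21, and at 22.8, 21.8, 32.4 and 33.4 CPM in wild-type astrocytes of animals 5, 9, 19 and 22. The pooled groups overlapped, but in each set of animals both mutants lay above both wild types. The log2 fold change of *Hmgn5* was 0.34 (SE 0.18, edgeR adjusted p = 0.716), with 0.36 and 0.31 within the sets, and 0.38 (SE 0.07, adjusted p = 0.0394) with *Xist* as a covariate, the 1 alternative in which it passed. In that fit 1.21% of all genes were called.

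The HMGN genes *Hmgn1*, *Hmgn2* and *Hmgn3*, summed per length, gave 53.8 to 75 CPM per kb of merged exons in mutant astrocytes and 51.2 to 65.4 in wild-type astrocytes, with a mutant mean of 114% of the wild-type mean and overlapping libraries. *Hmgn3* took 25.9% to 37% of that sum in wild-type and 29.4% to 42.4% in mutant astrocytes, and 4.33% to 6.71% in ECs. These shares depend on the length used: per kb of the canonical transcript they were 10.3% to 16.3%, 11.9% to 19.7% and 1.45% to 2.34%, and per kb of uncopied bases 7.16% to 11.6%, 8.34% to 14.1% and 0.979% to 1.59%. *Hmgn2* was the largest part in ECs on all 3 scales, at 52.1% to 63.6% on merged exons. In ECs the HMGN sum was 60.7 to 69.7 in mutants and 61.1 to 80.3 in wild types.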
